A study of Mus musculus with 3 samples.

Results

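Potassium channel subunits are the genes whose mouse symbols begin with Kcn. They were followed here in renin-producing cells sorted from kidney cortex of Ren1c-YFP mice, adult males in which yellow fluorescent protein (YFP) marks the juxtaglomerular cells. The members were all probe sets with 1 platform gene symbol beginning with Kcn, which gave 95 of 35557 probe sets and 92 of the 19938 genes with a symbol of their own. Of the 92, 89 encode proteins and 3 are opposite-strand RNAs, and 89 were read by 1 probe set each. Another 5 protein-coding Kcn genes of the RefSeq table were not analysed here. The series holds 1 group of 3 Affymetrix arrays, replicates 2, 4 and 5. For 2 weeks all mice drank water with captopril at 0.5 mg/ml, which blocks angiotensin-converting enzyme, and ate low-salt chow. Cortex was digested with collagenase and YFP-positive cells were sorted. The labels leave the strain unspecified and report no pooling. Whether each array stands for its own animal is unstated, and the p-values then cover only the spread among the 3 samples. Without an untreated, unsorted or YFP-negative sample, every value below is a level and not a response to captopril, to salt or to sorting.

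Potassium channels set the resting membrane potential, and through it the opening of voltage-gated calcium channels. In the juxtaglomerular cell, which is a modified smooth muscle cell of the afferent arteriole, cell calcium is known to restrain renin release, unlike in most secretory cells. In the tubule, potassium channels recycle or secrete potassium and support sodium reabsorption. Most channels are tetramers of pore-forming subunits, joined by auxiliary subunits that change gating or trafficking, and tandem pore channels are dimers.

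The question asked of each gene was whether its signal lay above background. Each array's 1027 olfactory receptor genes gave its background level, taken at their 95th percentile, which stood at 6.20 in replicate 2, 6.32 in replicate 4 and 6.50 in replicate 5. The mean of a gene's log2 signal minus this level was tested with limma, one-sided, with p adjusted over all 19938 genes and a threshold of 0.05. Since signal depends on probe affinity too, each signal is read against the level, and the range of signals within a family does not rank the abundance of its genes.

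Of the 92 potassium channel genes 17 were above background (18.5%), against 7437 of all 19938 genes tested (37.3%), and their median log2 signal was 5.99 against 6.33 over all genes. The 17 held inward rectifiers of the kidney tubule (Kcnj1, Kcnj10, Kcnj15, Kcnj16), subunits known from arterial smooth muscle (Kcna5, Kcnmb1, Kcnj8, Kcnk3), and further voltage-gated, tandem pore and auxiliary subunits. All 17 lay above the level on all 3 arrays. Of the other 75 genes, 54 lay under it on every array, a count that was not made over all genes. The share of potassium channel genes above the level on each array taken alone was 39.1%, 34.8% and 27.2% in replicates 2, 4 and 5, against 53.1%, 49.4% and 45.4% of all genes. At an unadjusted p under 0.05, 19 potassium channel genes and 8086 of all genes passed.

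**Figure D1:**
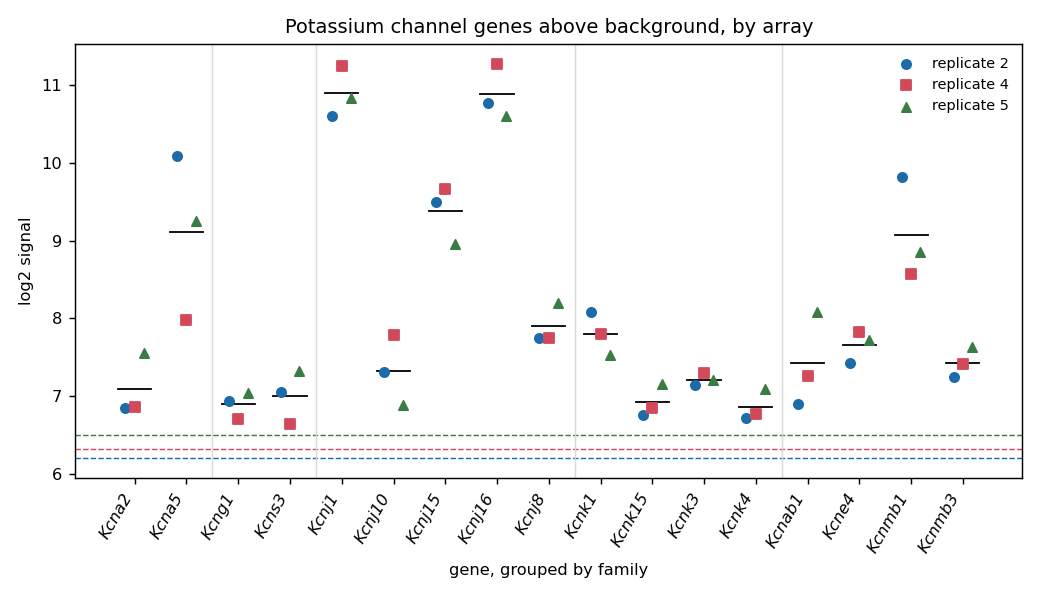
Log2 signal (y axis) of the 17 potassium channel genes above background (x axis, grouped by family), with 1 point per array, a black line at the mean and dashed lines at the background levels of the arrays in the same colours. Kcnj1 and Kcnj16 lie above 10 on all arrays, while 7 of the 17 lie on average less than 1 above the level, Kcnk4, Kcng1 and Kcnk15 the least.

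The samples carried RNA of mural cells and of other kidney cells, which bears on every level below. All 8 smooth muscle markers passed (Acta2 12.62 ± 0.06, mean ± SD, n = 3 here and throughout), as did 7 of 8 pericyte and mesangial markers (Rgs5 12.37 ± 0.10). The marker of the label itself, the renin gene, was not analysed here. Tubule markers passed too, in 10 of 10 cases for the proximal tubule (Kap 13.09 ± 0.08), 6 of 7 for the thick ascending limb (Umod 11.79 ± 0.57), 5 of 7 for the distal and connecting tubule (S100g 11.85 ± 0.56), 7 of 8 for principal cells (Fxyd4 8.59 ± 0.82) and 7 of 7 for intercalated cells (Atp6v1g3 11.09 ± 0.23). Endothelial markers passed in 8 of 12 cases (Emcn 9.22 ± 0.56) and macrophage markers in 2 of 10 (Cx3cr1 7.65 ± 0.33). Markers of podocytes (highest Podxl 6.59 ± 0.40), lymphocytes (Cd3e 6.58 ± 0.24), erythroid cells and platelets (Itga2b 6.64 ± 0.18) and nerve (Ngfr 6.65 ± 0.22) passed in 0 of 5, 0 of 7, 0 of 5 and 0 of 7 cases by limma. In such mixed RNA a call does not say which cells a transcript came from, and more cells of a type cannot be told apart from more RNA per cell.

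Inward rectifier channels (Kcnj) passed in 5 of 15 cases, or 33.3%, near the 37.3% of all genes. These channels pass potassium inward more readily than outward and hold the membrane near the potassium equilibrium. Kcnj1, which encodes ROMK, the apical secretory channel of the thick ascending limb and collecting duct, had log2 signals of 10.61, 11.25 and 10.84 in replicates 2, 4 and 5. Its mean was 4.56 ± 0.23 (SE) above background (limma adjusted p = 1.37e-06). Kcnj16, whose product joins that of Kcnj10 in a basolateral channel of the distal nephron, had signals of 10.78, 11.28 and 10.61 and a mean 4.55 ± 0.24 (SE) above background (limma adjusted p = 1.9e-06). Kcnj10 itself stood at 7.31, 7.78 and 6.88, 0.98 ± 0.24 (SE) above background (limma adjusted p = 0.0064). Kcnj10 and Kcnj16 had their highest signal in replicate 4 and their lowest in replicate 5. Kcnj15, a rectifier of the proximal tubule, had signals of 9.50, 9.67 and 8.96, and its mean lay 3.03 ± 0.28 (SE) above background (limma adjusted p = 3.37e-05).

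The fifth inward rectifier to pass was Kcnj8, the pore of the vascular channel that ATP closes and that hyperpolarises arterial muscle when it opens. Its signals were 7.75, 7.75 and 8.20, with a mean 1.56 ± 0.21 (SE) above background (limma adjusted p = 0.000285). Abcc9, the sulfonylurea receptor that completes this channel in vascular muscle, stood at 8.15, 8.17 and 8.11, 1.80 above background (limma adjusted p = 0.000171). The pair known from pancreatic beta cells did not pass. Its pore gene Kcnj11 had signals of 6.67, 6.42 and 6.69 (limma adjusted p = 0.164), above the level on all arrays by small amounts, and its receptor gene Abcc8 had signals of 5.90, 5.82 and 6.26, under the level on each.

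Kcnj2, a strong rectifier of vascular muscle and endothelium, missed the threshold with the widest spread of all 92 genes. Its signals were 6.07, 7.11 and 8.25 in replicates 2, 4 and 5, so it lay under the level in replicate 2 and above it in replicates 4 and 5. Its mean of 7.14 ± 1.09 gave an adjusted p of 0.0506 by limma. The range of 2.18 log2 units was reached or passed by 59 of all 19938 genes (0.296%). Leaving out replicate 2 or 4 brought Kcnj2 past the threshold (limma adjusted p = 0.0127 and 0.0323), and leaving out replicate 5 did not (limma adjusted p = 0.233). Without replicate 4 the mean of Kcnj2 was still 0.80 above background, with replicate 2 under its level, so that pass rests on no higher signal. Kcnj2 also passed when genes were read by the mean of their probe sets (limma adjusted p = 0.0485). As Kcnj2 has 1 probe set, its own signal did not change there, and it lay 0.81 and not 0.80 above background. The other inward rectifiers had means between 4.88 (Kcnj6) and 6.46 (Kcnj13). Among them were the subunits of the G protein-gated channels of heart and brain, Kcnj3 (5.63 ± 0.24), Kcnj5 (5.02 ± 0.07), Kcnj6 (4.88 ± 0.06) and Kcnj9 (5.50 ± 0.14), all under the level on every array.

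**Figure D2:**
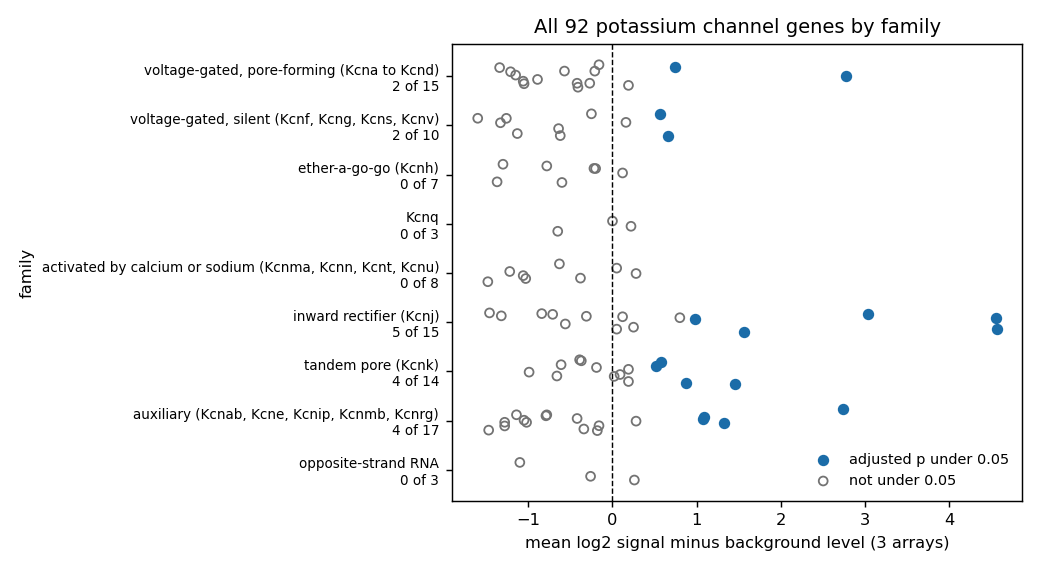
Mean log2 signal over the 3 arrays minus the background level (x axis) for all 92 potassium channel genes, by family (y axis, with the number above background and the number measured). Filled points passed limma's test and open points did not. The inward rectifiers hold the points furthest right, and Kcnh, Kcnq, the channels activated by calcium or sodium and the opposite-strand RNAs hold no filled point. Over all genes 37.3% passed.

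Voltage-gated pore-forming subunits (Kcna to Kcnd), which repolarise the cell after depolarisation, passed in 2 of 15 cases (13.3%, against 37.3% of all genes). Kcna5, a main delayed rectifier of arterial smooth muscle, had signals of 10.09, 7.98 and 9.25 and a mean 2.77 ± 0.40 (SE) above background (limma adjusted p = 0.000397). Its arrays differed by 2.10 log2 units, a range that 39 of the 7437 genes above background reached, with replicate 2 the highest and replicate 4 the lowest. Kcna2, another delayed rectifier of arteries, had signals of 6.85, 6.86 and 7.55, 0.74 ± 0.19 (SE) above background (limma adjusted p = 0.00677). That value is from the brighter of its probe sets, at 7.09, and the other had a mean of 6.16. With the mean of both, Kcna2 did not pass (limma adjusted p = 0.126). The remaining members had means between 5.00 (Kcna6) and 6.53 (Kcna3). They included Kcnd3 (5.45 ± 0.27), a transient outward channel, and the neuronal subunits Kcnc1 (5.92 ± 0.27), Kcnc2 (5.19 ± 0.19) and Kcnd2 (5.13 ± 0.36). They also included the tubule channels Kcna1 (5.29 ± 0.17) and Kcna10 (6.07 ± 0.11). Kcnb2 was the other gene that missed the test and spanned more than 1 log2 unit, with 6.40 in replicate 2, above the level there, and 5.30 and 5.60 in replicates 4 and 5.

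Silent voltage-gated subunits (Kcnf, Kcng, Kcns, Kcnv) form no channel of their own and change the properties of other voltage-gated subunits they assemble with. Of 10 measured, 2 passed (20.0%, against 37.3% of all genes). They were Kcns3 (7.05, 6.64 and 7.32) and Kcng1 (6.94, 6.71 and 7.04), at limma adjusted p = 0.0119 and 0.016. Both calls were lost in tests with fewer arrays. Kcng1 missed the threshold without replicate 2 or 4 (limma adjusted p = 0.0908 and 0.0549) and Kcns3 without replicate 2 (limma adjusted p = 0.0714). Without replicate 4 the mean of Kcng1 was 0.64 above the level, against 0.56 with all arrays, so its signal was not lower. Over all genes 30.3% passed without replicate 2 and 32.1% without replicate 4, against 37.3% with all arrays. The 8 that did not pass had mean signals between 4.75 (Kcns2) and 6.50 (Kcng2). Amigo1, an adhesion protein that accompanies voltage-gated channels, passed at 7.57 ± 0.16 (limma adjusted p = 0.000644).

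Tandem pore channels (Kcnk), which carry background potassium current, passed in 4 of 14 cases (28.6%, against 37.3% of all genes). Kcnk1, a weak rectifier found in tubule cells among others, had signals of 8.08, 7.80 and 7.53, 1.46 ± 0.24 (SE) above background (limma adjusted p = 0.00076). Kcnk3, an acid-sensitive channel of vascular muscle, had signals of 7.14, 7.29 and 7.21, the smallest range of the 17 genes at 0.15, and a mean 0.87 ± 0.18 (SE) above background (limma adjusted p = 0.00272). Kcnk15, a relative of Kcnk3, stood at 6.75, 6.84 and 7.16 (limma adjusted p = 0.0116). Kcnk4, a mechanosensitive channel, stood at 6.72, 6.77 and 7.09 (limma adjusted p = 0.0173). Both lay less than 0.6 above the level on average. Kcnk15 missed the threshold without replicate 4 (limma adjusted p = 0.0643), and Kcnk4 without replicate 2 or 4 (limma adjusted p = 0.0697 and 0.084). Their means were no lower without replicate 4, at 0.60 and 0.55 above the level, against 0.58 and 0.52 with all arrays. Kcnk6, a channel of vascular muscle (6.53 ± 0.32), Kcnk16 (6.53 ± 0.20) and the proximal tubule channel Kcnk5 (6.43 ± 0.16) had means above the level and did not pass. Kcnk2 (5.73 ± 0.20), which opens on stretch, Kcnk9 (5.97 ± 0.05) and Kcnk18 (5.35 ± 0.13) were under it on every array.

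The large-conductance calcium-activated channel (BK) gave different calls for its subunits. Kcnmb1, its smooth muscle beta subunit, which raises calcium sensitivity, had signals of 9.82, 8.57 and 8.85, 2.74 ± 0.32 (SE) above background (limma adjusted p = 0.000132). Kcnma1, the only pore gene of this channel, was under the level on every array, at 5.20, 5.25 and 5.38, and its other probe set had a mean of 3.91. A probe set under background does not show that a transcript is missing. Kcnmb3, another beta subunit, passed at 7.24, 7.41 and 7.63 (limma adjusted p = 0.00103), while Kcnmb2 (5.06 ± 0.33) and Kcnmb4 (5.55 ± 0.24), known from brain and from tubule cells, did not. Of the gamma subunits, Lrrc26 (6.72 ± 0.08) missed the threshold (limma adjusted p = 0.0533). Besides lower background levels, it passed with quantile normalization (limma adjusted p = 0.0437) and the mean of probe sets (limma adjusted p = 0.0479). It also passed with no eBayes trend and 1 level for all arrays (limma adjusted p = 0.0358 and 0.0357), but missed with any single array left out. Lrrc38, Lrrc52 and Lrrc55 had means under the level.

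Other channels activated by calcium or sodium did not pass, so the count for Kcnma, Kcnn, Kcnt and Kcnu was 0 of 8 by limma, and 1 of 8, Kcnn1 (6.62 ± 0.09), at an unadjusted p under 0.05. Kcnn3 (6.39 ± 0.13) and Kcnn4 (5.97 ± 0.06), which hyperpolarise endothelium, lay near and under the level. The neuronal sodium-activated channel Kcnt1 stood at 5.71 ± 0.13 and Kcnn2 at 4.86 ± 0.06. No Kcnh gene passed either (0 of 7, and 0 at an unadjusted p under 0.05), with means between 4.97 (Kcnh7) and 6.46 (Kcnh4). No Kcnq gene passed (0 of 3, and 0 at an unadjusted p under 0.05). Over all genes tested 37.3% passed, and no test of a family was run. Kcnq1 (6.56 ± 0.19), which with Kcne1 (6.62 ± 0.33) forms a channel of the proximal tubule and heart, had a mean above the level (limma adjusted p = 0.254, and 0.193 for Kcne1). Kcnq5 (5.69 ± 0.37), an arterial channel, and Kcnq3 (6.34 ± 0.15), a neuronal one, did not pass.

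Auxiliary subunits (Kcnab, Kcne, Kcnip, Kcnmb, Kcnrg) passed in 4 of 17 cases (23.5%, against 37.3% of all genes), with Kcnmb1 and Kcnmb3 among them. Kcnab1, a beta subunit of Kcna channels, had signals of 6.90, 7.26 and 8.08, 1.07 ± 0.23 (SE) above background (limma adjusted p = 0.00302), and was highest in replicate 5, as was Kcna2. Kcne4, which slows or inhibits several voltage-gated channels, stood at 7.42, 7.83 and 7.72, 1.32 ± 0.20 (SE) above background (limma adjusted p = 0.000582). None of the Kcnip genes, which accompany Kcnd channels, was above the level on any array, with means between 5.20 and 5.92, and the same held for their fellow subunit genes Dpp6 (4.80 ± 0.06) and Dpp10 (4.58 ± 0.15). Kcne3, at 4.87 ± 0.34, did not pass. The 3 opposite-strand RNAs, Kcnd3os (6.60 ± 0.37), Kcnmb4os1 (6.08 ± 0.17) and Kcnmb4os2 (5.24 ± 0.18), did not pass.

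Read by the tissue in which channels are known, 7 of 15 measured vascular and renin cell channels and 5 of 13 tubule channels passed, counts near the 37.3% of all genes that did. The vascular genes were Kcna2, Kcna5, Kcnab1, Kcne4, Kcnj8, Kcnk3 and Kcnmb1, and the tubule genes Kcnj1, Kcnj10, Kcnj15, Kcnj16 and Kcnk1. Of 4 endothelial and 12 neuronal and cardiac channels 0 passed, and of these only Kcnj2, on the endothelial list, had an unadjusted p under 0.05 by limma. Kcnma1 and Kcnq1 stand on both the vascular and the tubule list, Kcnj2 on the vascular and the endothelial list, and Kcna1 on the tubule and the neuronal list.

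Calls were also compared between neighbouring channel genes. In the order of protein-coding genes on the chromosomes, 12 pairs of neighbours held a potassium channel gene and another gene of the family or of its partner list. Both passed in 1 pair, Kcnj8 and Abcc9 on chromosome 6, 1 of the 2 genes in 8 pairs and neither in 3. The share of differing pairs among all neighbouring genes was not computed, so these counts do not set potassium channel genes apart. With the mean of probe sets Kcna2 lost its call and Kcnj2 gained one, which changes the pairs that hold them. Kcnj1 passed beside Kcnj5 on chromosome 9, Kcnj15 beside Kcnj6 on chromosome 16, Kcnj10 beside Kcnj9 on chromosome 1, and Kcnj16 beside Kcnj2 on chromosome 11. On chromosome 6 Kcna5 passed beside Kcna1, and on chromosome 3 Kcna2 passed between Kcna3 and Kcna10. The pair Kcnip1 and Kcnmb1 on chromosome 11 completes the 8 pairs, with Kcnmb1 above background.

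Partners and regulators of potassium channels passed in 10 of 22 measured cases, of 24 listed, near the 37.3% of all genes. Besides Abcc9 and Amigo1 these were mostly genes of the WNK pathway, in which WNK kinases act through Stk39 and Oxsr1 on salt cotransporters and also set the surface level of ROMK. Wnk1 stood at 10.83, 10.92 and 10.63, Stk39 at 10.45, 9.79 and 9.31, Oxsr1 at 7.32, 8.20 and 6.91 and Wnk4 at 7.38, 7.43 and 6.70. Their limma adjusted p were 1.48e-06, 2.96e-05, 0.00703 and 0.0126, and Wnk4 missed the threshold without replicate 2 (limma adjusted p = 0.0816). Cul3, a scaffold of the ubiquitin ligase that degrades WNK kinases, stood at 11.46 ± 0.09 and its adaptor gene Klhl3 at 5.92 ± 0.28, under the level. The ubiquitin ligase gene Nedd4l (7.44 ± 0.27) passed, and Sgk1 (6.38 ± 0.45), the aldosterone-induced kinase, did not. Tmem175, a lysosomal potassium channel, passed at 7.12 ± 0.24, and Tmem38b, a cation channel of the endoplasmic reticulum, at 7.07 ± 0.08. With the mean of its probe sets Tmem38b did not pass (limma adjusted p = 0.096). The pacemaker genes Hcn2, Hcn3 and Hcn4, with means from 5.55 (Hcn2) to 6.07 (Hcn3), were under the level on every array.

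The second question was how far the channels differed between samples. Among the 17 genes above background the median SD was 0.32 on the log2 scale, against 0.27 over all genes above background, and 3 of 17 spanned more than 1 log2 unit (17.6%, against 13.7%). The 3 were Kcna5, Kcnmb1 (range 1.24) and Kcnab1 (range 1.18). After quantile normalization between arrays their ranges were 2.06, 1.19 and 1.32. With 1 sample per array these differences have no replicate check and no test.

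Kcna5 and Kcnmb1, both known from arterial smooth muscle, were highest in replicate 2, by 1.47 and 1.10 over the mean of the other arrays, and lowest in replicate 4. Kcnj8, Kcnk3 and Kcne4, from the same vascular list, were not highest in replicate 2. The smooth muscle markers had a summed log2 signal of 82.1, 79.4 and 81.2 over 8 genes in replicates 2, 4 and 5, and the pericyte and mesangial markers 70.0, 68.1 and 69.1 over 8 genes, in the same order of arrays. The endothelial markers had sums of 95.8, 85.1 and 84.3 over 12 genes. Median shifts, here and below, set each array against the mean of the others over list members above background only. In replicates 2, 4 and 5 they were 1.28, -0.59 and -0.69 for endothelial and 0.20, -0.18 and 0.07 for smooth muscle markers. The endothelial markers that did not pass had replicate 2 shifts of 0.30 (Kdr), -0.46 (Tek), 0.31 (Tie1) and 0.87 (Eng). Pericyte and mesangial markers had median shifts of 0.10, -0.13 and 0.14, highest in replicate 5. The part of mural and endothelial cells in the signals of Kcna5 and Kcnmb1 was not tested.

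The tubule channels were ordered otherwise. Among the 17 genes, replicate 4 was furthest above the other arrays in Kcnj10 (0.68), Kcnj16 (0.58) and Kcnj1 (0.52), and replicate 5 furthest below in Kcnj10 (-0.67), Kcnj15 (-0.62) and Kcnj16 (-0.42). Kcnj1 was lowest in replicate 2 instead (-0.43). Thick ascending limb markers had summed signals of 66.9, 68.2 and 62.3 over 7 genes, with median shifts of 0.17, 0.64 and -0.86, and proximal tubule markers 107.6, 108.0 and 101.6 over 10 genes. Principal cell markers, at 57.7, 64.3 and 60.6 over 8 genes, were lowest in replicate 2, as was Kcnj1. Distal and connecting tubule markers, at 55.7, 56.6 and 57.6 over 7 genes, had their highest sum in replicate 5 (median shift 0.53 over the 5 that passed). These 5 were split. Slc12a3 (8.84, 9.58 and 8.85) and Calb1 (9.13, 9.33 and 9.05) were highest in replicate 4, and S100g, Trpv5 and Slc8a1 in replicate 5. Intercalated cell markers, at 53.9, 57.8 and 57.3 over 7 genes, were lowest in replicate 2 (median shift 0.27 in replicate 5). The part of tubule RNA in these differences was not tested. Kcnk1 was 0.41 above the others in replicate 2, and Kcns3 was below the others in replicate 4 (-0.55) and above them in replicate 5 (0.48).

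**Figure D3:**
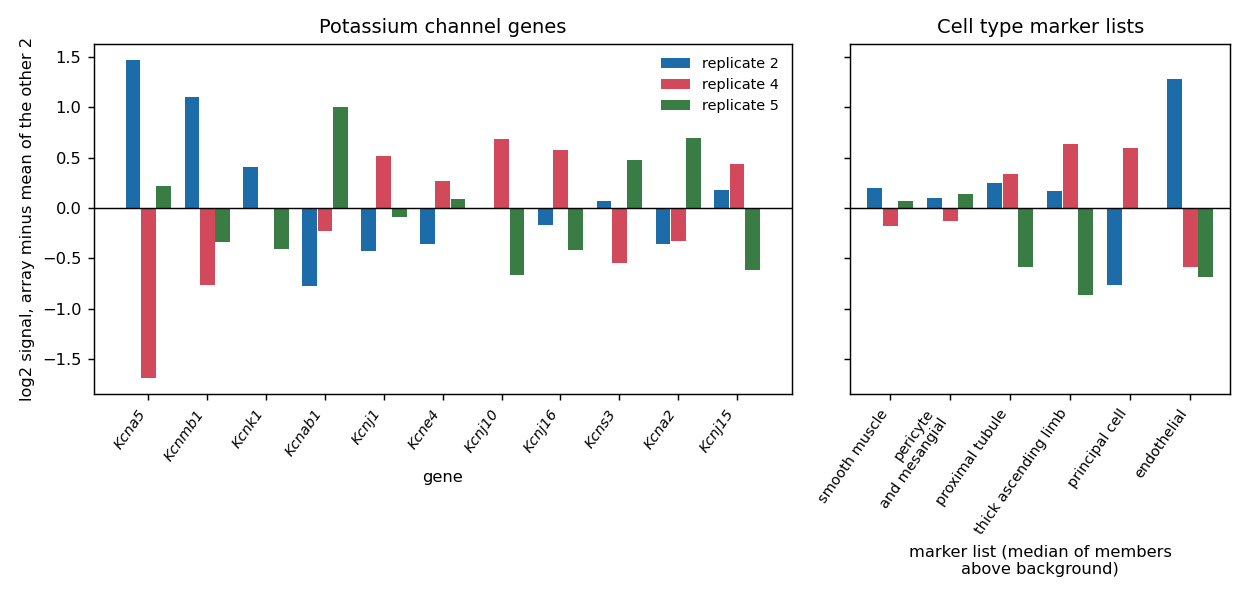
Log2 signal of each array minus the mean of the other 2 (y axis), at left for the 11 genes furthest above or below on any array among the 17 potassium channel genes above background, and at right as the median over the members above background of 6 marker lists. Bars are single arrays without error. Kcna5 and Kcnmb1 are highest in replicate 2, as are the endothelial markers (median shift 1.28) and, by less, the smooth muscle markers (0.20). The pericyte and mesangial markers are highest in replicate 5 (0.14, against 0.10 in replicate 2). Kcnj10, Kcnj15 and Kcnj16 share their low replicate 5 with the proximal tubule and thick ascending limb markers but not the principal cell markers. The distal and connecting tubule and intercalated cell markers, not drawn, had median shifts of 0.53 and 0.27 in replicate 5.

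Replicate 5 was the highest array for Kcnab1 (1.00 above the mean of the others) and Kcna2 (0.69), and by 1.66 for Kcnj2, which did not pass. Among the 17 genes above background, replicate 2 was furthest below the others in Kcnab1 (-0.77), Kcnj1 (-0.43) and Kcne4 (-0.36), and of the genes that did not pass Kcnj2 was at -1.61 there. Among the 17 genes 8 were highest in replicate 5, 6 in replicate 4 and 3 in replicate 2. Of the 75 genes that did not pass, 44 were highest in replicate 5, the array with the highest background level and the highest median signal over all probe sets (6.21, against 6.09 and 6.11 in replicates 2 and 4). The 7437 genes above background, to be set beside the 17, had their highest value in replicate 5 in 1548 cases and in replicate 2 in 3260. For the 12501 genes not above background, to be set beside the 75, this count was not made.

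The calls depended mainly on the level taken as background. With the 99th percentile of olfactory receptor genes 6 of the 17 genes kept their call, namely Kcna5, Kcnj1, Kcnj8, Kcnj15, Kcnj16 and Kcnmb1, as 3303 of all genes (16.6%) then passed. With a level from keratin-associated protein genes, 2 did, Kcnj1 and Kcnj16 by limma, against 3.56% of all genes. Lower levels, from the 90th percentile or from vomeronasal receptor genes, kept all 17 and added 17 and 37 genes. Under every setting the share of potassium channel genes above background was under that of all genes.

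**Figure D4:**
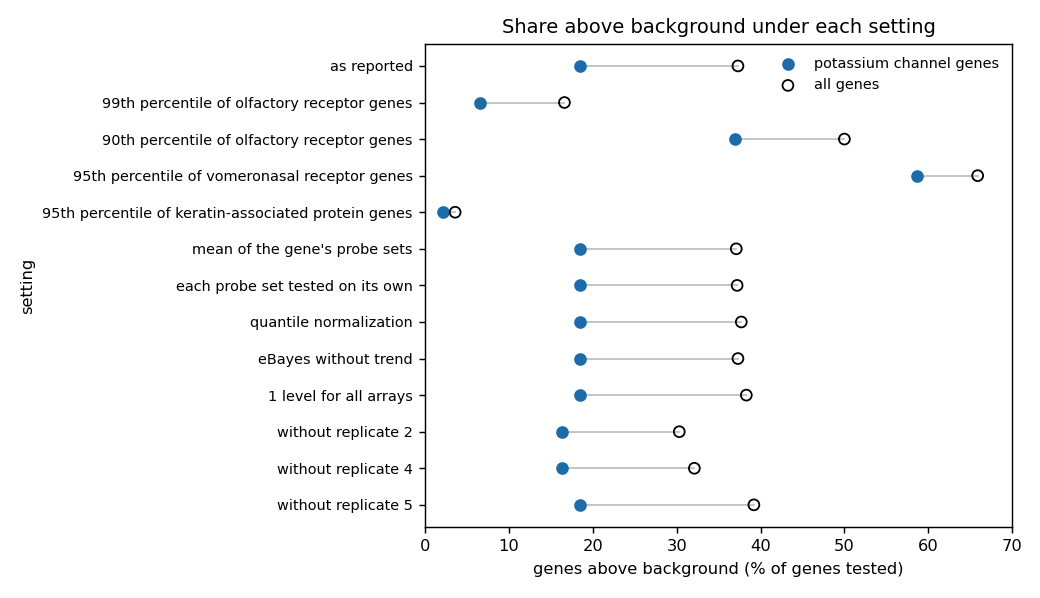
Share of genes above background (x axis, % of genes tested) under each processing setting (y axis), with filled points for the 92 potassium channel genes and open points for all genes. The filled point lies left of the open one in every row, from 2.17% against 3.56% to 58.7% against 65.9%.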

How the data were processed

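The authors deposited log2 signals for every probe set on each array, made with Affymetrix Expression Console per the submitters' processing notes. How it corrected, normalized and summarised probes, like its version, is not given in the sources used here. That the scale is log2 was read from the range of values, since the log base is unstated. Precision is limited by the number of arrays, 3.

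Probe sets were named from the platform annotation: 21789 had 1 symbol, 1621 several and 12147 none listed. All 92 Kcn symbols matched a RefSeq table (GRCm38.p6) by Entrez identifier unchanged. That table also gave chromosomes and gene order, and no coordinates are printed, as no source names the array's build. The brightest probe set stood for a gene. Signals minus the array's background level were tested one-sided with an intercept-only limma fit (version 3.58.1, R 4.3.3; eBayes with a trend) and Benjamini-Hochberg adjustment over all 19938 genes. On simulated arrays of 19938 genes the test called 82.0% of genes planted 0.5 log2 units above the level and 98.0% at 1. It called 0.122% of genes left at their measured means at or under the level, which does not measure errors exactly at the level. Planted genes kept the SD they had under the level, so the test may find fewer genes with wider spread. Median SD was 0.17 in Kcn genes not above background and 0.32 in those above. Python 3.11.15, pandas 2.3.3 and numpy 2.4.6 were used.

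The members and all gene lists were chosen with earlier results of these data known. Named in the text are every Kcn gene above background, all members of the channel lists, the highest and lowest other member of each family, of the genes above background the 3 furthest above and below on each array, genes with disagreeing probe sets, partner genes that passed with the lowest that did not, and the highest gene of each marker list. Further members and partners were named after their values were seen. The alternatives were 4 other background levels, 2 other treatments of probe sets, quantile normalization, eBayes without trend, 1 level for all arrays, and leaving out each array.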

Additional observations from a re-analysis of the deposited data

How the results depend on the processing

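The count of 17 potassium channel genes above background was 6 with the 99th and 34 with the 90th percentile of olfactory receptor genes, 54 with a level from vomeronasal and 2 with one from keratin-associated protein genes. It was 17 with the mean of probe sets, each probe set tested alone, quantile normalization, no eBayes trend or 1 level for all arrays, and 15 to 17 without single arrays. The 17 with the mean of probe sets held Kcnj2, whose own signal was unchanged, in place of Kcna2. By family, in the order 99th percentile, 90th percentile, vomeronasal and keratin-associated, the counts were 1, 3, 8 and 0 for Kcna to Kcnd (1 with the mean of probe sets), 0, 3, 4 and 0 for silent subunits (0 to 2 without single arrays), 0, 1, 4 and 0 for Kcnh, 0, 2, 2 and 0 for Kcnq, 0, 2, 3 and 0 for channels activated by calcium or sodium, 4, 9, 11 and 2 for Kcnj, 0, 8, 11 and 0 for Kcnk (2 to 4 without single arrays) and 1, 5, 9 and 0 for auxiliary subunits. Partner genes, 10 in the report, gave 4, 11, 17 and 2. All 19938 genes, with 7437 above background in the report, gave 3303, 9964, 13140 and 709 in the same order. Without replicate 2, 4 or 5 all genes gave 6051, 6400 and 7806. The family and partner counts are to be read against these, as a changed level moves all genes, and no test of a family was run.

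At the 99th percentile the means of Kcna2, Kcng1, Kcnk15, Kcnk4, Kcns3, Wnk4, Tmem175 and Tmem38b relative to the level were -0.12, -0.31, -0.29, -0.35, -0.20, -0.04, -0.09 and -0.14. With the keratin-associated level they were -1.58, -1.77, -1.75, -1.81, -1.67, -1.50, -1.55 and -1.60, and those of Kcnab1, Kcne4, Kcnj10, Kcnj8, Kcnk1, Kcnk3, Kcnmb3, Abcc9, Amigo1, Oxsr1 and Nedd4l were -1.25, -1.01, -1.34, -0.77, -0.87, -1.46, -1.24, -0.52, -1.10, -1.19 and -1.23. These shifts follow from a higher level by construction. The median SD of the 17 genes, 0.32, was 0.29 with quantile normalization and 0.32 with the mean of probe sets. Outside the 99th percentile and keratin-associated levels, 12 of the 17 genes kept their call under every alternative run. The test takes in the variation of 3 arrays but not that among background probes, and a signal near background limits what can be said of most of the 92 genes. No paired analysis was possible because the series holds 1 group.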
